A study of Homo sapiens with 7 samples.

Results

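Glycolysis turns glucose into pyruvate, and the hypoxia-inducible factors (HIF) are transcription factors that raise many of its genes when oxygen is low. The group described here holds the glycolytic enzymes, the carriers for glucose and lactate, the HIF subunits with their regulators, and further HIF targets. It was chosen by gene name: every probe set of the array that the platform annotation assigns to one of 40 listed genes alone. Of these, 37 genes had such probe sets, 84 in all, out of 19775 genes on the array. The remaining 3, SLC16A1, SLC16A3 and CA9, are not analysed here. A probe set is a group of short probes for one transcript region, and 3 of the 84 are control probe sets for GAPDH.

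HT1080, an established human fibrosarcoma line, was grown in 7 cultures with 1 array each. The 4 compound cultures were exposed for 2 h to 11.25 ng/ml catechin, to 6.25 ng/ml of either epicatechin or taxifolin, or to 2195 ng/ml resveratrol. The serum cultures were exposed for 2 h to 5% control serum, whose source is not given, or 5% pycnogenol-positive serum from patients who took pycnogenol, a pine bark extract. The untreated culture carries the label none, with no time, medium change or solvent given. All cells were kept in medium with fetal bovine serum before treatment, and the labels do not say whether the replaced medium still held it. In the text, serum-free means without added test serum, and values in the serum-free cultures are listed in the order untreated, catechin, epicatechin, taxifolin and resveratrol.

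Signals are the deposited MAS5 intensities on a linear scale. They compare one probe set across arrays, and not one gene with another. Each gene was read from its brightest probe set, and 35 of the 37 genes had a mean signal above the filter of 269, the median of all genes. EGLN3, an oxygen-sensing prolyl hydroxylase, read 39.4 to 96.1, and ADM, the vasodilator peptide adrenomedullin, 26.9 to 87.1, so neither was compared. With 1 array a group no test was possible, and a gene is called different only from 2-fold upwards. Differences are on the log2 scale, as the first array minus the second.

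The cells and arrays were checked once. All 8 fibroblast and mesenchymal markers had a mean signal above the filter, while 0 of 6 epithelial and 0 of 5 endothelial markers did, with CDH5 at or under the signal floor of 34.9 on all arrays. Of 8 annotated blood cell markers, HBB alone passed. The summed blood marker signal was 872 to 1019 in the serum-free cultures, 779 with control serum and 1117 with pycnogenol serum, and its part in any serum result was not tested. The ratio of 3′ to 5′ signal, a measure of RNA integrity, was 0.961 to 1.12 for GAPDH and 2.40 to 4.02 for ACTB, the highest value being epicatechin's. The median signal ran from 114 to 136.

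HIF is a dimer whose alpha subunit is marked by oxygen-dependent prolyl hydroxylases and then destroyed through VHL, so its activity is set largely at the protein level. When stable, it binds a short DNA motif, the hypoxia response element, near its targets. Cancer cells often keep glycolysis high even with oxygen present, and growth factors and serum can also act on glycolytic genes.

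The upstream sequences of 6 members are shown because these genes stood apart in both serum cultures, with HK2, ALDOC, ANKRD37 and EPAS1 lower and BPGM and PFKFB3 higher. HK1 stood apart too, by a small difference, and its most upstream window held 0 matches and is not printed. SLC2A3, BNIP3L and NDRG1 also stood apart, as lower, and no promoter window was matched for them. Each printed sequence is the 250 bases before the most upstream annotated start of the gene, from RefSeq on GRCh38.p14. It is written 5′ to 3′ on the gene's own strand. Capitals mark the response element core, ACGTG or GCGTG, on either strand. CACGTG, the E-box that MYC family factors bind, contains ACGTG on both strands and is therefore counted on each. Matches can thus outnumber the marked stretches.
ANKRD37, chr4:185396591-185396840, plus strand: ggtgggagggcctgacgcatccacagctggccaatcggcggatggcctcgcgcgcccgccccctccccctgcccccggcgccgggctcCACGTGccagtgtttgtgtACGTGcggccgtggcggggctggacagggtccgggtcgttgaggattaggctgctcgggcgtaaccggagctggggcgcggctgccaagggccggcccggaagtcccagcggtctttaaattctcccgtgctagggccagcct
ALDOC, chr17:28576896-28577145, minus strand: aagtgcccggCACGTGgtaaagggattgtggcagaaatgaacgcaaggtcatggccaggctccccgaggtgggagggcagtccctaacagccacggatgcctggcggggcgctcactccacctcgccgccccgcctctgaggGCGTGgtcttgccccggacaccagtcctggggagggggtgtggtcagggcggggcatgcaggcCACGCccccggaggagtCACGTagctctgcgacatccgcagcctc
HK2, chr2:74833877-74834126, plus strand: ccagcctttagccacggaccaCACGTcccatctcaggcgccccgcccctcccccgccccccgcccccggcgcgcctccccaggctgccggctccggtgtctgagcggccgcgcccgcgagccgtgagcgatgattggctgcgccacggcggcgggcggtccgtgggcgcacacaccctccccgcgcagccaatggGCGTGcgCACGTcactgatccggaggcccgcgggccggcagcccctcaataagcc
EPAS1, chr2:46297157-46297406, plus strand: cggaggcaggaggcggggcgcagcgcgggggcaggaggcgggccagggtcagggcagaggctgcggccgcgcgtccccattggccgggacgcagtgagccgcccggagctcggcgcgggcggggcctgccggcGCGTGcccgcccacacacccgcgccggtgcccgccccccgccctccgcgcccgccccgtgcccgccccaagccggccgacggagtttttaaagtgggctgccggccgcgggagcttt
BPGM, chr7:134646603-134646852, plus strand: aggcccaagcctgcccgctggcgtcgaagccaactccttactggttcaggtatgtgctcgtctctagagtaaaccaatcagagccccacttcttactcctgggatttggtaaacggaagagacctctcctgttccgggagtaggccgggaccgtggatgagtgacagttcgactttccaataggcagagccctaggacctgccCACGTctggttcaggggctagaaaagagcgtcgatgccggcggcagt
PFKFB3, chr10:6144671-6144920, plus strand: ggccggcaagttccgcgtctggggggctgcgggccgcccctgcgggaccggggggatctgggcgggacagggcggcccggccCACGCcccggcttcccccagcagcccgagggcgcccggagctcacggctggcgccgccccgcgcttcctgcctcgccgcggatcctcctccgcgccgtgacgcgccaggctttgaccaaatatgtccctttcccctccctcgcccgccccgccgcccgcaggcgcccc

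In the windows shown, ALDOC had 5 matches, ANKRD37 3 and HK2 3, while EPAS1, BPGM and PFKFB3 had 1 each. Some of these genes have further annotated starts, so the counts depend on the window. The other window of HK2 held 6 matches and that of PFKFB3 2, both with CACGTG. A further window of HK1 held 1 match. Promoter windows were matched for 33 of the 37 members. Over all 57 windows of these genes 59.6% held at least 1 match, against 43.2% of 35116 windows of the whole table. CACGTG was in 14.0% of the members' windows and in 6.34% of all windows. Counted by gene, 27 of 33 members had a match in some window, 81.8% against 47.4% of all genes. The members were listed as HIF targets and glycolytic genes to begin with, so this share describes the list. A match says only that these letters are present.

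Most members varied over the 7 cultures about as much as other genes did. Among the 35 members the range over the arrays, highest minus lowest, had a median of 0.43 (log2) against 0.47 over all 9888 genes compared, and 21 of 35 members stayed within 0.5, as did 5459 of all 9888. For brighter genes the ranges were smaller in general: 26 members lay above the 75th percentile of mean signal, with a median range of 0.34 against 0.36 over all genes there. The steadiest member was HK1, a hexokinase that starts glycolysis, with a range of 0.094. ALDOA, an aldolase, had a range of 0.13, GAPDH of 0.16 and PGK1, the first ATP-forming enzyme of the pathway, of 0.17. The widest ranges belonged to BPGM at 1.46 and VHL at 1.32, wider than those of 98.6% and 97.8% of all compared genes, followed by ENO2 at 0.83.

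**Figure D1:**
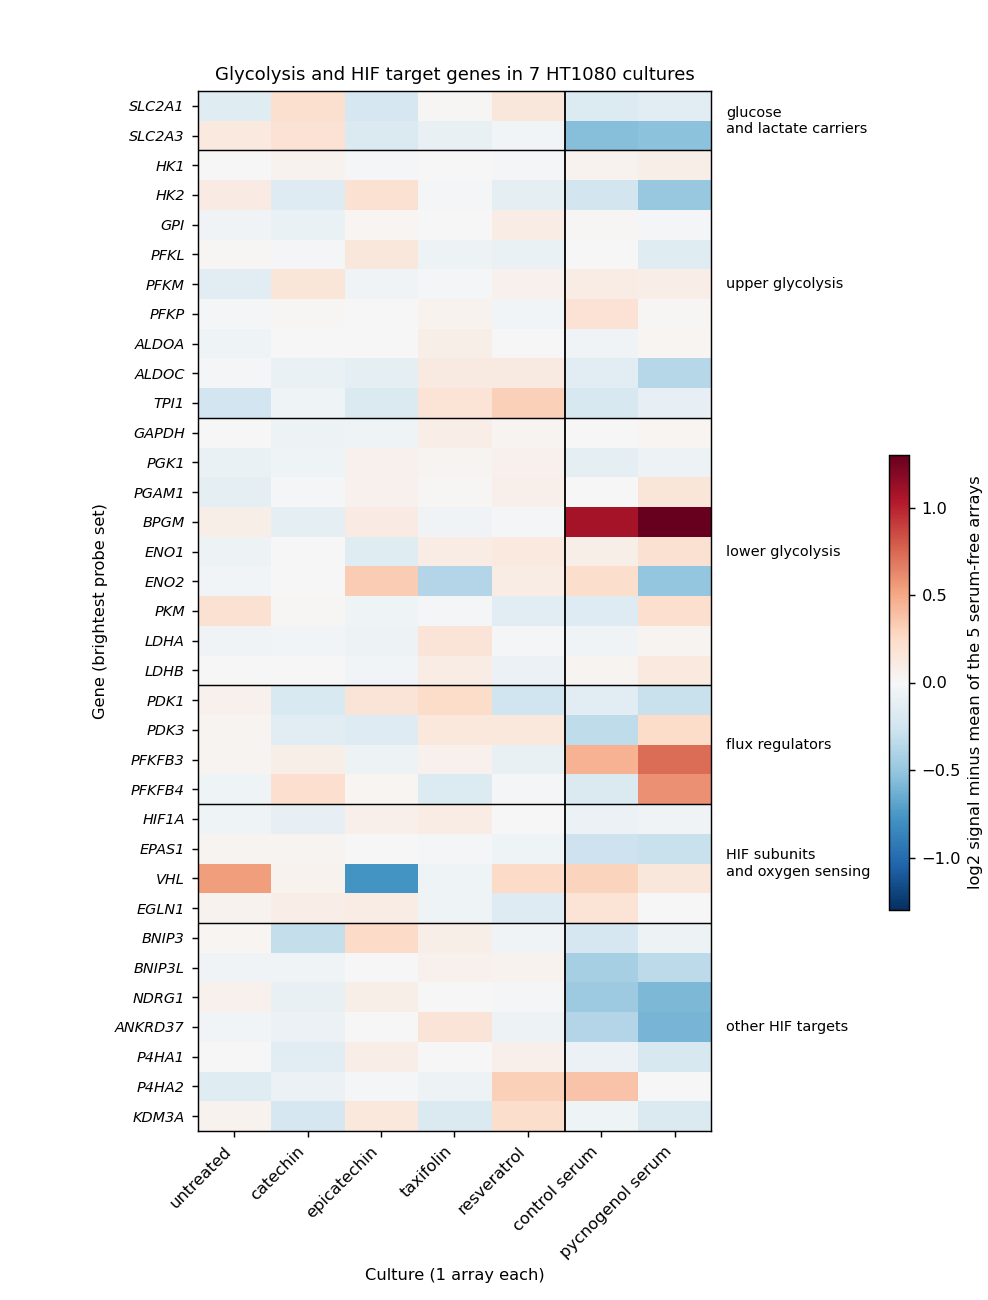
Heat map of the 35 members above the signal filter, grouped by role, against the 7 cultures. Colour is the log2 signal minus the mean of the 5 serum-free arrays, and the line separates the serum cultures. Most rows are pale, BPGM is red in both serum columns, and VHL is blue with epicatechin.

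Against the untreated culture the 4 compounds left nearly all members within 2-fold. No member reached 2-fold with catechin, taxifolin or resveratrol, where 0.455%, 0.465% and 0.728% of all genes did. With epicatechin 1 of 35 members did, VHL, beside 0.314% of all genes. At 1.5-fold the counts were 0 with catechin, 1 with epicatechin, 1 with taxifolin and 0 with resveratrol, where 3.55%, 2.82%, 3.3% and 4.46% of all genes passed. The medians of the members, in the same order, were -0.0054, 0.047, 0.073 and 0.036, beside 0.035, 0.032, 0.032 and 0.025 for all genes compared.

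VHL encodes the recognition subunit of the ligase that marks HIF alpha for destruction. It read 965, 686, 387, 638 and 790.5 in the serum-free cultures and 813 and 733 with control and pycnogenol serum. Epicatechin gave the lowest value and the untreated culture the highest, so every comparison with the untreated array came out negative. The differences were -0.49 with catechin, -1.32 with epicatechin, -0.60 with taxifolin and -0.29 with resveratrol, and these share that array. The epicatechin difference came to 2.50-fold, a larger distance than that of 99.9% of all genes in the comparison. The other VHL probe set, with 50.1 to 81.6 over the arrays, lay under the filter, so the difference rests on 1 probe set. No member was past 2-fold with epicatechin when probe sets were averaged, or under the settings that left this probe set out. The ACTB ratio of 3′ to 5′ signal was also the highest of all arrays with epicatechin, and its part in the VHL value was not tested.

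Glucose enters the cell through facilitative carriers, of which SLC2A1 is the widespread form and SLC2A3 a high-affinity one. SLC2A1 read 3571, 4599, 3425, 4006 and 4402 in the serum-free cultures and 3508 and 3622 with control and pycnogenol serum. It was highest with catechin, 0.37 against untreated, and second highest with resveratrol at 0.30, both short of 1.5-fold. Its other probe set lay under the filter. For SLC2A3 epicatechin gave the largest difference of the compounds on the brightest probe set, -0.32. Its other probe sets gave -0.39 and 0.20 there, so they did not share a direction.

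In the first steps of glycolysis, TPI1, which interconverts the triose phosphates made from the split sugar, had the largest differences with a compound on the brightest probe sets. It read 25468, 29060.2, 26504, 34155 and 37308 in the serum-free cultures and 26151 and 28034 with control and pycnogenol serum. Taxifolin and resveratrol gave the highest values, 0.42 and 0.55 against untreated. The second TPI1 probe set gave 0.14 and 0.08, so the size did not carry over. The third gave 0.50 and 0.23. The remaining upper enzymes, HK1, HK2, GPI, PFKL, PFKM, PFKP, ALDOA and ALDOC, lay between -0.28 (HK2 with catechin) and 0.30 (PFKM, a phosphofructokinase, with catechin) on their brightest probe sets. The second probe set of PFKL, the liver form of phosphofructokinase, differed from its brightest, at -0.61 with catechin and -0.72 with epicatechin, both past 1.5-fold. For HK2 one other probe set was at -0.39 with epicatechin, where the brightest was at 0.091.

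In the later steps of the pathway ENO2 and PKM differed most on the brightest probe sets. ENO2, the enolase known from neurons, read 923, 946, 1192, 728 and 1016 in the serum-free cultures and 1109 and 672 with control and pycnogenol serum. It was highest with epicatechin, at 0.37, and low with taxifolin, at -0.34. PKM, the pyruvate kinase that makes the last ATP of the pathway, read 5268, 4638, 4423, 4523 and 4181 without and 4082 and 5339 with control and pycnogenol serum. All 4 compounds lay below the untreated array for PKM, with resveratrol at -0.33. ENO2 has 1 probe set, and the second one of PKM lay under the filter. GAPDH, PGK1, PGAM1, BPGM, ENO1, LDHA and LDHB lay between -0.19 (BPGM with catechin) and 0.21 (LDHA, lactate dehydrogenase A, with taxifolin) on their brightest probe sets. One PGK1 probe set was at 0.62 with catechin, where the brightest was at 0.038. Other ENO1 probe sets were at -0.48 and -0.42 with epicatechin, where the brightest was at -0.092. The 3 GAPDH control probe sets read 45468 to 60487 over all arrays.

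Among the remaining HIF targets, BNIP3 and P4HA2 led. BNIP3, a mitochondrial protein that promotes mitophagy, read 17007, 13444, 19869.8, 17663 and 16213 in the serum-free cultures and 14318 and 15961 with control and pycnogenol serum. It was lowest with catechin, at -0.34, and its second probe set gave -0.09. P4HA2, a collagen prolyl hydroxylase subunit, read 2032, 2161, 2247, 2177 and 2813 without and 2931 and 2272 with control and pycnogenol serum. Resveratrol and control serum gave its highest values, 0.47 and 0.53 against untreated, and its second probe set gave 0.34 and 0.29. On that probe set epicatechin was the highest, at 0.41. The remaining targets, BNIP3L, NDRG1, ANKRD37, P4HA1 and KDM3A, lay between -0.27 (KDM3A, a histone demethylase, with catechin) and 0.20 (ANKRD37 with taxifolin). With epicatechin all 7 compared targets of this role lay above 0 by 0.019 to 0.22, and with catechin 1 of 7 did. Their medians were 0.090 and -0.13, beside 0.032 and 0.035 for all genes compared, which also lay above 0. Both counts use the same untreated array.

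HIF1A, the main HIF alpha subunit, differed from untreated by -0.047 to 0.15 over the compounds, and EPAS1, which encodes HIF-2 alpha, by -0.091 to -0.0063. EGLN1, the main HIF prolyl hydroxylase, was lowest with resveratrol, at -0.21. Its other probe sets gave 0.29 and -0.19 there, so they did not share a direction. The flux regulators include PDK1 and PDK3, kinases that inhibit pyruvate dehydrogenase. The others are PFKFB3 and PFKFB4, which set the level of the phosphofructokinase activator fructose 2,6-bisphosphate. Among these regulators the largest difference on the brightest probe sets was -0.31, for PDK1 with resveratrol. Other probe sets lay farther out. One of PDK3 was at -0.76 with resveratrol, where the brightest was at 0.10, and one of PDK1 at -0.60 with taxifolin, where the brightest was at 0.18.

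Epicatechin and taxifolin were given at the same concentration and time, and taxifolin carries a ketone that epicatechin lacks. Directly compared, 0 of 35 members differed by 2-fold, where 0.324% of all genes did, and 2 differed by 1.5-fold, VHL and ENO2, where 3.47% of all genes did. VHL was at 0.72, ENO2 at -0.71 and TPI1 at 0.37, with taxifolin the first array. On other probe sets PFKL was at 0.66 and PDK1 at -0.79, where the brightest were at -0.21 and 0.068. The median of the members was 0.030 and that of all genes 0.00066. Catechin, the stereoisomer of epicatechin, was given at a higher concentration, and its values stand beside epicatechin's above without a comparison. With 1 array each, no interval can be set on these differences.

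**Figure D2:**
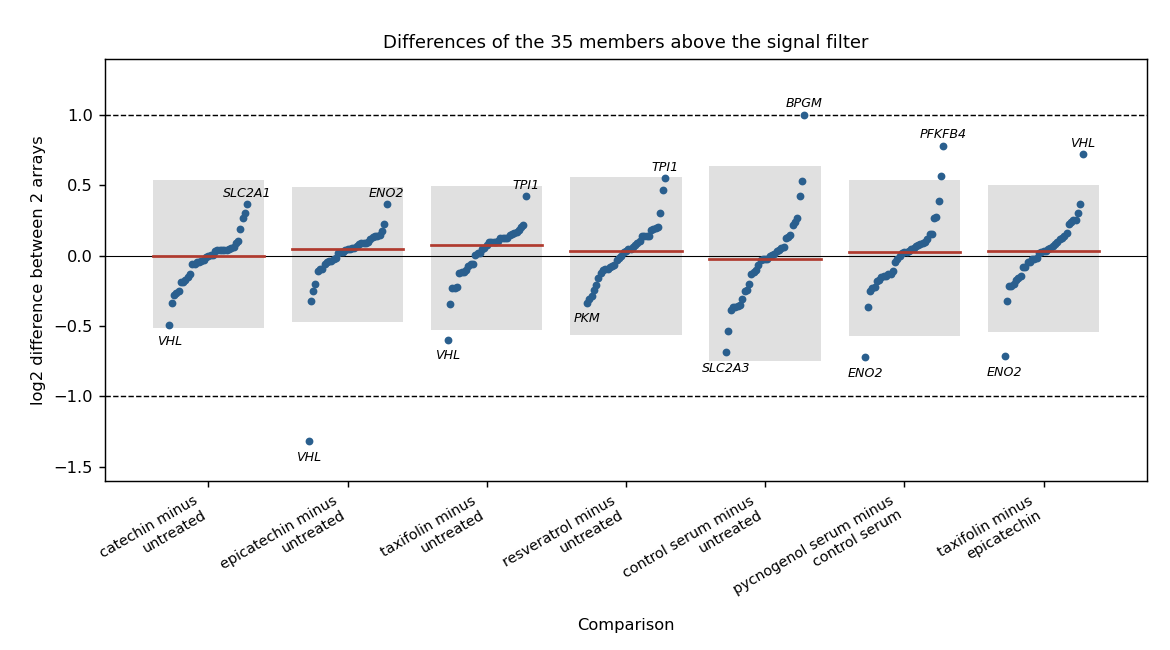
Log2 differences of the 35 members in 7 comparisons of 2 arrays; points are genes sorted by value, red bars the members' medians, grey boxes the range of all 9888 genes without the outermost 2.5% at each end, and dashed lines 2-fold. VHL with epicatechin and BPGM with control serum are the members at or past 2-fold.

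With control serum against the untreated culture, BPGM was higher, and the glucose carrier SLC2A3 and the HIF target NDRG1 were the lowest members. Of 35 members 1 was past 2-fold, where 1.2% of all genes were, and 2 were past 1.5-fold, BPGM and SLC2A3, where 7.83% of all genes were. In all, 15 members lay above 0 and 20 below, with a median of -0.022 beside 0.0076 for all genes. The median absolute difference was 0.15 for the members and 0.19 for all genes.

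In 10 of 35 members both serum values lay outside the range of the 5 serum-free values. With the main processing this share, 28.6%, was close to the 29.6% of all genes for which that held. By direction 3 members were higher and 7 lower, or 8.57% and 20.0%, beside 13.5% and 16.1% of all genes. The cultures are different treatments and the serum split was chosen with earlier results known, so the share is a description. Leaving out control serum raised the count to 20 (57.1%, all genes 53.4%) and leaving out pycnogenol serum to 17 (48.6%, all genes 49.1%), since 1 array is more easily outside than a pair.

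BPGM makes and breaks down 2,3-bisphosphoglycerate, a side product of glycolysis that lowers the oxygen affinity of hemoglobin in red cells. It read 333, 292, 339, 307 and 310.2 in the serum-free cultures and 666 and 804 with control and pycnogenol serum. Both serum values lay above all serum-free values, the lower of them 1.96 times the highest serum-free value. The difference of control serum from untreated was 1.00, just at the 2-fold limit, and that of pycnogenol serum from control serum 0.27. The gene has 1 probe set. Its serum-free signals were close to the filter of 269, where no detection calls were at hand, so the size of the difference is uncertain. BPGM is abundant in red cells. The red cell gene HBB read 227, 394, 339, 299 and 413 in the serum-free cultures and 382 and 522 with control and pycnogenol serum. The control serum value of HBB lay within the serum-free range, and its pycnogenol serum value lay above it. Any part of red cells in the BPGM values was not tested.

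PFKFB3, the inducible enzyme that makes fructose 2,6-bisphosphate, was another member higher in both serum cultures. Against untreated it was 1.34-fold higher with control serum and 1.62-fold with pycnogenol serum, both short of 2-fold. The gene has 1 probe set. PFKFB3 read 3484, 3582, 3257, 3538 and 3195 in the serum-free cultures and 4675 and 5636 with control and pycnogenol serum. The groups did not overlap, and the lower serum value was 1.31 times the highest serum-free value. HK1 also lay outside the serum-free values, with 8355, 8647, 8275, 8446 and 8272 without and 8659.7 and 8829.9 with control and pycnogenol serum, but the mean difference was 0.058, or 1.04-fold. It is the smallest difference of the 10.

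Members lower in both serum cultures were SLC2A3, HK2, ALDOC, EPAS1, BNIP3L, NDRG1 and ANKRD37. Quantile normalization took HK1 and ALDOC out of the 10 and brought ALDOA and PGK1 in as lower, and median centring took ALDOC out. With probe sets averaged HK2, EPAS1 and ANKRD37 dropped out, and P4HA2 came in as higher. SLC2A3 read 1579.5, 1638, 1264, 1349.9 and 1412 in the serum-free cultures and 983 and 998 with control and pycnogenol serum. Both serum values were the lowest, and their mean on the log2 scale was 1.46-fold lower than the serum-free mean. A second SLC2A3 probe set was also below all serum-free values, at -0.48, while the third, at -0.25, overlapped with them.

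NDRG1, a stress-responsive gene and common hypoxia marker, read 8474, 7616, 8588, 8130.2 and 7999.7 without serum and 5858 and 5424 with control and pycnogenol serum. ANKRD37, a small HIF-1 target with ankyrin repeats, read 1476, 1438, 1516, 1698 and 1446 without and 1159.7 and 992 with control and pycnogenol serum. BNIP3L, the mitophagy receptor also called NIX, read 16134, 16074, 16667, 17265 and 17144 without and 12363 and 13112 with control and pycnogenol serum. In all of these the serum values were the lowest, with mean differences of -0.53, -0.49 and -0.39. Both probe sets of BNIP3L gave this order, the second at -0.46. NDRG1 has 1 probe set, and the second one of ANKRD37 lay under the filter.

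HK2, the hexokinase raised in many tumours, read 7927, 6522, 8445, 7288 and 6702 without serum and 6203 and 5216 with control and pycnogenol serum. Both serum values were the lowest, with a mean difference of -0.37. Its 2 other probe sets gave 0.015 and -0.084 and overlapped, so the difference was seen on 1 of 3 probe sets. EPAS1 read 8756, 8718, 8528, 8390.3 and 8219.6 without and 7089.7 and 6972 with control and pycnogenol serum. Its mean difference was small, -0.28, but its serum-free values lay within 0.091 of each other, and its other probe sets lay under the filter. ALDOC, an aldolase, read 1195, 1146, 1109.6, 1321 and 1319.6 without and 1102 and 938 with control and pycnogenol serum, with control serum just under the lowest serum-free value.

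**Figure D3:**
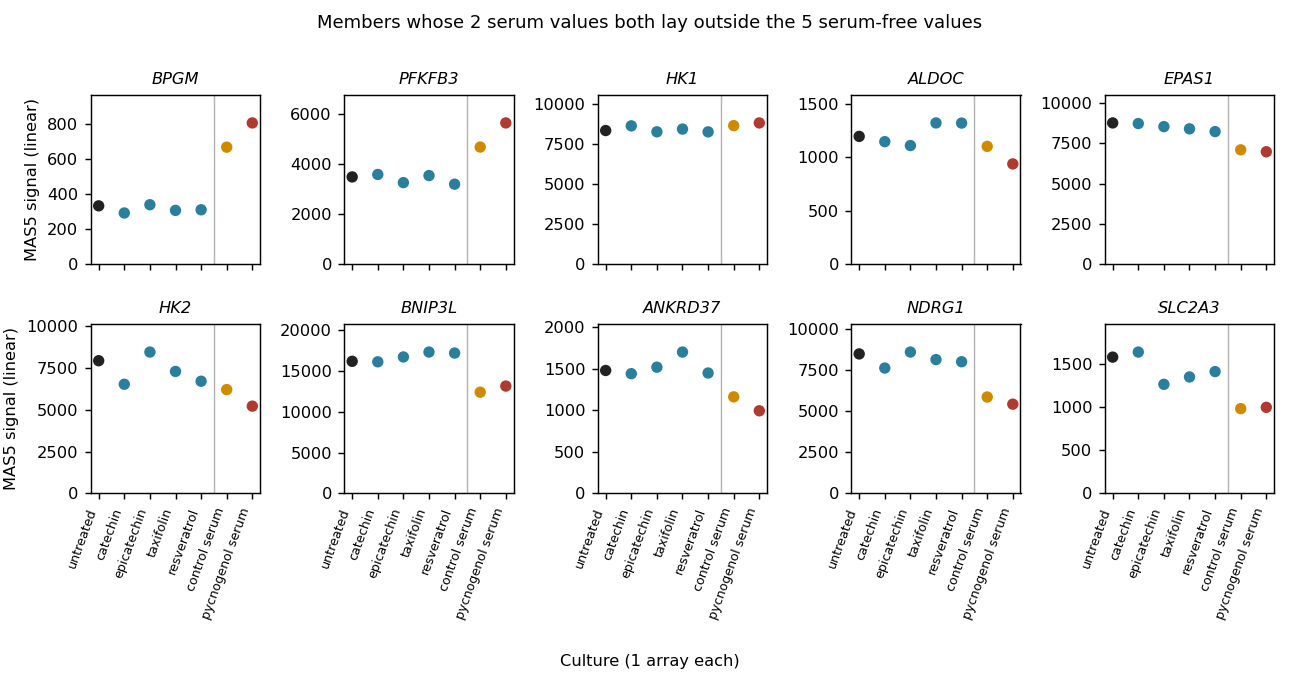
MAS5 signal on a linear axis from 0 of the 10 members whose 2 serum values both lay outside the 5 serum-free values, 1 point per culture, with the untreated culture in black, compounds in blue and serum in orange and red. BPGM shows the widest gap, 666 and 804 against 292 to 339, and HK1 almost none.

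Over all member probe sets, more stood lower with serum than higher. Of the 61 above the filter, 13 were below and 3 above all serum-free values. These shares were 21.3% and 4.92%, beside 14.8% and 12.5% of all such probe sets. Of the 13 lower ones 7, and all 3 higher ones, are the brightest probe sets already given above. Probe sets of a gene share their target, so these are not independent. BNIP3's second probe set was at -0.45 and PDK1's second at -0.60, while their brightest probe sets, at -0.14 and -0.22, overlapped with the serum-free values. The third TPI1 probe set was at 299 in control serum and 676 in pycnogenol serum, against 698 to 1003 without, and an EGLN1 probe set lay at -0.32 where the brightest was at 0.09. Over the 15 genes with several probe sets above the filter, 18 of 26 other probe sets had the direction of the brightest on this serum difference. In the 7 comparisons of single arrays this count ran from 11, with control serum against untreated, to 19, with catechin.

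**Figure D4:**
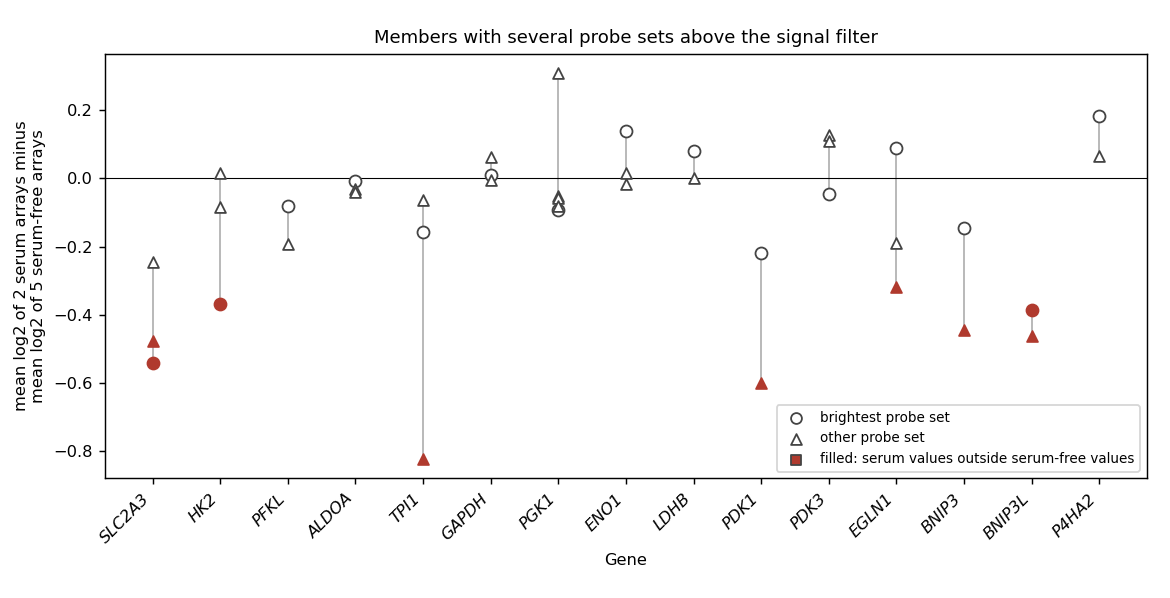
Mean log2 signal of the 2 serum arrays minus that of the 5 serum-free arrays for every probe set above the filter of the 15 members with several; circles are the brightest and triangles the others, filled where both serum values lay outside the serum-free values. BNIP3L, with 2 filled symbols of 2, and SLC2A3, with 2 of 3, are the genes with more than 1 filled symbol.

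Pycnogenol serum beside control serum sets serum taken after pycnogenol intake against serum without it, as far as the labels say. No member differed by 2-fold, where 0.536% of all genes did, and 2 of 35 differed by 1.5-fold, PFKFB4 higher and ENO2 lower, where 4.24% did. The members' median was 0.028 and that of all genes 0.0082. PFKFB4, an isoenzyme of PFKFB3, read 1046, 1262, 1110.3, 965 and 1079 without serum and 958 and 1647 with control and pycnogenol serum. Pycnogenol serum gave its highest value, 1.72-fold above control serum, while control serum lay just below all serum-free values. Its other probe set lay under the filter.

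PDK3 read 887, 787, 771, 953 and 953 without serum and 689.9 and 1022 with control and pycnogenol serum. The pair of serum values bracketed the others, with a difference of 0.57. On its 2 other probe sets above the filter the difference was 0.015 and -0.067. ENO2 was at -0.72 and lowest of all with pycnogenol serum, and PKM was at 0.39, its control serum value being the lowest of the 7 and its pycnogenol serum value the highest. The members that stood apart in both serum cultures differed between the 2 sera by -0.25 (HK2) to 0.27 (BPGM). This comparison and the one of control serum with untreated share the control serum array.

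On their brightest probe sets the remaining members stayed within 1.5-fold in the serum comparisons. With control serum GPI, PFKL, PFKM, PFKP, ALDOA, GAPDH, PGK1, PGAM1, ENO1, LDHA, LDHB, PDK1, HIF1A, EGLN1, P4HA1 and KDM3A lay between -0.20 (PDK1) and 0.24 (PFKM). Between the sera they lay between -0.18 (EGLN1) and 0.15 (PGAM1, a phosphoglycerate mutase). Other probe sets of 2 of them were past 1.5-fold with control serum, PFKL at -0.64 and PDK1 at -0.74. The third TPI1 probe set was past 2-fold, at -1.25 with control serum against untreated and 1.18 between the sera, where the brightest was at 0.038 and 0.10. HIF1A read 40028, 38739, 43781, 44455 and 41801 without serum and 39428 and 40433 with control and pycnogenol serum, with no culture apart.

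Among other HIF targets, outside the member list, a few genes differed more between the serum cultures and the rest. Of 28 listed genes 25 were compared, and none reached 2-fold with any of the 4 compounds. EDN1, the vasoconstrictor endothelin-1, read 273, 356, 402, 393 and 378 without and 984 and 901 with control and pycnogenol serum. It was the gene of this list farthest from untreated with every compound, at 0.38 to 0.56, and with control serum it was at 1.85, and its untreated value, 273, is the lowest of all. HMOX1, heme oxygenase, was at 1.71 with control serum. These were the 2 genes past 2-fold there, where 1.2% of all genes were, and the list's median was -0.15.

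DDIT4, an inhibitor of mTORC1, read 11957, 9525, 12014, 10654 and 10467 without and 8184 and 1253 with control and pycnogenol serum. It was the 1 gene of 25 in the list past 2-fold between the sera, at -2.71, where 0.536% of all genes were. It was followed by the histone demethylase KDM4C at 0.77. The next largest with the compounds were DDIT4 with catechin at -0.33, RLF with epicatechin at 0.29, the collagen crosslinker LOX with taxifolin at -0.30 and the MYC antagonist MXI1 with resveratrol at -0.40. Between taxifolin and epicatechin KDM4C was at -0.44 and LOX at -0.35. VEGFA, the angiogenic factor, named here after its values were seen, read 20265, 18532, 21060.4, 21506 and 19038 without and 12060.1 and 8156 with control and pycnogenol serum, with a mean difference of -1.02. In this list 8 of 25 genes were below and 3 above all serum-free values, beside 16.1% and 13.5% of all genes.

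Of 13 HIF partners and ligase subunits, 11 were compared and none reached 2-fold in the 7 comparisons. The largest values were those with resveratrol, where ARNT, the shared beta subunit of HIF, was at 0.76 and the coactivator EP300 at -0.85. ARNT was at 0.35 and 0.21 with taxifolin and catechin. Its untreated value, 420.5, was the lowest of all arrays, so every comparison with that array came out positive. EP300 was at -0.29 with taxifolin. RBX1, a ring subunit of the VHL ligase, was at 0.49 with epicatechin. With control serum SIAH1 was at -0.47 and EP300 at -0.32, and between the sera SIAH2, a ligase for prolyl hydroxylases like SIAH1, was at -0.60. Of 22 other glycolysis isoenzymes and carriers 20 were annotated, and 1, the ADP-dependent glucokinase ADPGK, passed the filter. It differed by at most 0.27, with control serum.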

How the data were processed

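Gene expression in 7 HT1080 cultures was measured on Affymetrix arrays of 54675 probe sets. The deposited values are MAS5 signal intensities, which the authors computed per the submitters' processing notes; the version and detection calls are not given in the sources used here. Each array's mean lay at 1000 after trimming 2% at each end. Of the probe sets, 41097 were annotated to 1 gene, 1801 to several and 11777 to none; the last 2 kinds and control probe sets were left out of the gene level.

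A floor of 34.9, the 25th percentile over the arrays, was set before the log2 scale was taken. Each of 19775 genes was read from its brightest probe set, and the 9888 genes whose mean reached the median, 8.07 (log2), were compared. Differences are between single arrays, so counts use 2-fold in place of a test. Promoters came from RefSeq for GRCh38.p14. Members past 2-fold, the 3 largest in each comparison and those outside the serum-free values are given in every array. The members and lists were chosen with earlier results of these data known. Python 3.11.15, numpy 2.4.6, pandas 2.3.3 and statsmodels 0.14.6 were used. Normalization, floor, filter, probe set reading, fold limit, reference and left-out arrays were varied.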

Additional observations from a re-analysis of the deposited data

How the results depend on the processing

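No paired analysis was possible because each group held 1 array. Of 165 recomputed counts and medians of members, 139 kept their value within 1.5 times for counts or 0.034 (log2) for medians, the SD of the members' median over pairs of serum-free arrays. Quantile normalization moved the median with epicatechin to 0.0098 and with taxifolin to 0.017. Pairwise loess moved them to 0.0011 and 0.019, and that with resveratrol to -0.0054. When a gene's probe sets were averaged, the first 2 medians were 0.0096 and 0.016, and the 2-fold count with epicatechin, VHL in the report, was 0. Without _x_at and _s_at probe sets, which left 20 members, that count was also 0, the taxifolin median 0.035, the control serum median -0.12 with 2 members past 2-fold, and 1 member was past 2-fold between the sera. With the filter at the 75th percentile, which left 26 members, the counts with epicatechin and control serum were 0, the members outside the serum-free values were 6, and the serum median was -0.0067. Without a filter 1 member, ADM, was past 2-fold between the sera. A limit of 1.5-fold gave 1 with taxifolin and 2 each with control serum, between the sera and between taxifolin and epicatechin. With the untreated array as reference pycnogenol serum gave 1, BPGM. Leaving out each array in turn gave 10 to 20 members outside and medians of -0.081 to -0.012. The share of members outside was 40% without _x_at and _s_at probe sets, beside 27.9% of all genes. With the filter at the 75th percentile it was 23.1%, beside 32.3%. The differences at or past 2-fold were VHL with epicatechin, and BPGM with control serum and over both serum cultures. None of them changed sign, and smaller differences were not checked for this. The number of arrays, 1 a group, limits the precision.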

Other observations

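Pyruvate entry into the mitochondrion and the pentose phosphate pathway border on glycolysis. Of 20 listed genes 16 were compared, and none reached 2-fold against the untreated culture with a compound or control serum, between the sera, or between taxifolin and epicatechin. With pycnogenol serum against the untreated culture PCK2 was past 2-fold, at -1.01. PCK2, the mitochondrial phosphoenolpyruvate carboxykinase, read 5329, 4020.1, 4686, 4930.4 and 3700.4 in the serum-free cultures and 2977 and 2638 with control and pycnogenol serum, below all serum-free values, with a mean difference of -0.68. PDP1, a phosphatase that reactivates pyruvate dehydrogenase, read 17899, 19301, 20804, 20476 and 19765 without and 13582 and 12510.0 with control and pycnogenol serum, also below, with a mean difference of -0.59. With resveratrol PCK2 was at -0.53 and MPC1, a subunit of the mitochondrial pyruvate carrier, at -0.42 against untreated. In this list 3 of 16 genes were higher and 4 lower than all serum-free values, beside 13.5% and 16.1% of all genes.

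There were 2 further probe sets annotated to both SLC2A3 and its close relative SLC2A14, which the gene level left out. One read 844 untreated, 500.4 with control serum and 502 with pycnogenol serum, below all serum-free values, and the other did not stand apart, at -0.32 for the mean of the serum arrays minus that of the others.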
